A study of Homo sapiens with 4 samples.

Results

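MT-ND1 is the mitochondrial mRNA for NADH:ubiquinone oxidoreductase core subunit 1, and its reactivity to dimethyl sulfate (DMS) was read at every base in 4 libraries. It is 1 of 37 annotated mitochondrial genes and 1 of 12 protein-coding genes read from the heavy-strand file. Each of the 12 is called an mRNA below, although ATP8 and ATP6 share a transcript, as do ND4L and ND4. Its bases were taken by position alone, as file positions 3306 to 4261, which are positions 3307 to 4262 of the mitochondrial chromosome in the GRCh38.p14 gene table. The file numbering ran 1 below the reference numbering in this stretch.

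The libraries came from mitochondria isolated from HEK-293T cells, an established human embryonic kidney line grown here in liquid culture. There were 2 libraries from wild-type cells and 2 from cells lacking LRPPRC, and the labels call each a biological replicate. All 4 had been treated with 1% DMS at 37 °C while the mitochondria were whole, and no untreated library was analysed here. How the knockout was made, and whether it is 1 clone, is not given in the sources used here, and the LRPPRC transcript could not be read in files that hold only mitochondrial positions. The labels pose a comparison of mitochondrial RNA folding with and without LRPPRC.

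DMS adds a methyl group to adenine and cytosine where the face used for base pairing is free, and the TGIRT-III reverse transcriptase used here tends to write a wrong base at such a site. A high mismatch level at an A or C therefore marks a base that is open to the reagent, and a low level one that is paired or covered. G and U, written T in these files, are not read this way and serve as the background. ND1 is a membrane subunit of respiratory complex I, at the junction with the arm that reaches into the matrix. Its mRNA is cut from a long heavy-strand precursor between flanking tRNAs and is translated by the mitochondrial ribosome. LRPPRC is an RNA-binding protein of mitochondria that works with SLIRP, stabilises most heavy-strand mRNAs and supports their polyadenylation and translation. Reads from the finished mRNA and from its precursor cannot be told apart in these files.

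The gene is 956 nt long and has no intron. It lies 2 nt after the gene for tRNA-Leu (TRNL1) and directly before the gene for tRNA-Ile (TRNI). Its frame holds 318 whole codons with 0 stop codons inside, and the last 2 nt become a stop codon once the poly(A) tail is added. It contains 272 A, 344 C, 228 T and 112 G. Positions with a mean mismatch level from 0.2% to 30% over the 4 libraries were tested, which kept 612 of the 616 A and C, 270 A and 342 C. The other 4 lay under the lower limit.

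The stretches below are shown because the results turn on them: the start of the mRNA, its least reactive windows, the stretches that held most positions higher in the knockout, and its end. Capitals mark an A or C among the highest 25% of its own base within ND1, in wild type (at least 3.80% for A and 5.20% for C) or in the knockout (at least 2.92% for A and 3.16% for C). They were chosen with the values known.

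wild type, nt 1 to 60: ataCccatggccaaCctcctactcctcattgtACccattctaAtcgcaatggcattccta
knockout, nt 1 to 60: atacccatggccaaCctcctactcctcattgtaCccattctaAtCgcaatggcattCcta
wild type, nt 101 to 150: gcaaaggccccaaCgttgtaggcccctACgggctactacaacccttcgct
knockout, nt 101 to 150: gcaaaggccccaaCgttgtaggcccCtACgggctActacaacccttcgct
wild type, nt 351 to 410: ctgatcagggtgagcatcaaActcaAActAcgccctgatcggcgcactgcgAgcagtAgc
knockout, nt 351 to 410: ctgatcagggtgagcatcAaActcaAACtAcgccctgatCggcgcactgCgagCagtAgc
wild type, nt 571 to 630: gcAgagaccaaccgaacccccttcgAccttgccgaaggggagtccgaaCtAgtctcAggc
knockout, nt 571 to 630: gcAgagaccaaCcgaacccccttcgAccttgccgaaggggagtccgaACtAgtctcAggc
wild type, nt 927 to 956: taCaatctccagcattccccctcaaaccta
knockout, nt 927 to 956: taCaatctccagcattccccctcaaaccta

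These stretches start at file positions 3306, 3406, 3656, 3876 and 4232. The stretch from nt 351 to 410 held 6 capitals in wild type against 10 in the knockout, and the one from nt 571 to 630 held 5 and 7. Over the last 30 nt the same single C was in capitals in both.

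ND1 was less reactive in the knockout, and more so at C than at A. The mean level at A was 2.95% and 2.93% in the wild-type libraries and 2.32% and 2.32% in the knockout libraries. The mean level at C was 4.05% and 4.03% in wild type against 2.44% and 2.47% in the knockout. For both bases the knockout libraries lay below both wild-type libraries, by far more than the spread of each pair. The median ratio of wild type to knockout was 1.24 over the tested A and 1.60 over the tested C. C thus read 1.37 times as high as A in wild type against 1.06 times as high in the knockout. With 2 libraries a group, the two-sided exact permutation test cannot give a p below 0.333, and that is the value it gave for each of these differences.

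Over all tested positions the mean level in ND1 was 3.59% and 3.57% in wild type against 2.40% and 2.41% in the knockout. On the log2 scale, with 0.001 added to each fraction, ND1 fell by 0.49 (limma, adjusted p = 9.29e-07 over all genes). The medians of the heavy-strand libraries were also lower in the knockout, with a difference of -0.63. Centred on those medians, ND1 was 0.14 higher in the knockout (SE 0.0076, limma adjusted p = 0.000411). The centred call is a statement about ND1 relative to the rest of the strand, and its sign is opposite to that of the level itself. Of all 37 genes, 59.5% were called higher with centring and 64.9% lower without it, so a call in either direction was common.

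Replicates were close. Over the 612 tested positions the log2 values correlated at 0.998 between the wild-type libraries and at 0.998 between the knockout libraries, and at 0.884 to 0.887 between the groups. These are descriptions across positions that share libraries and sequence. The files give fractions without read counts, so depth is unknown and no counting error can be set beside a position.

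Reactivity varied along the mRNA in windows of 50 nt, and this variation was flatter in the knockout. In wild type the highest window mean was 1.89 times the lowest, and in the knockout 1.39 times. The highest windows in wild type were nt 701 to 750 (4.40% and 4.31%), nt 201 to 250 (4.34% and 4.31%) and nt 751 to 800 (4.21% and 4.14%). Their knockout means were 2.66% and 2.65%, 2.43% and 2.47%, and 2.64% and 2.63%. The lowest windows in wild type were nt 101 to 150 (2.32% and 2.27%), nt 551 to 600 (2.44% and 2.41%) and the last window, nt 901 to 956 (2.80% and 2.92%). Their knockout means were 1.93% and 1.94%, 1.96% and 1.96%, and 2.05% and 2.09%. The same windows were the 3 lowest in both groups, while nt 201 to 250 stood 18th from the lowest of 19 in wild type and 9th in the knockout. Base content differed between windows, and C fell more than A. C made up 73.5% of the tested positions in nt 201 to 250, the highest share of the 19. It made up 41.4% in nt 51 to 100, the lowest share, and that window stood 7th in wild type and 18th in the knockout. The window means were not adjusted for base content, and its part in the flattening was not tested.

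**Figure D1:**
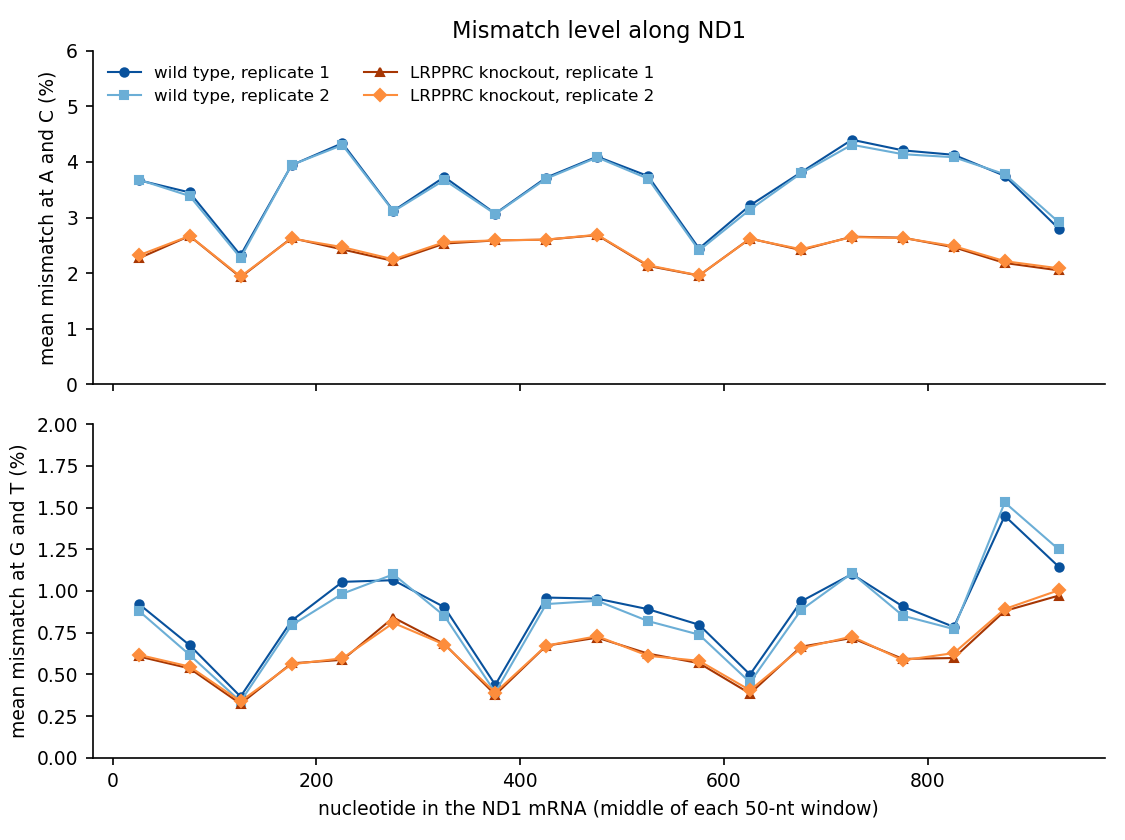
Mean mismatch level (%) in 50-nt windows of ND1 against the nucleotide in the mRNA, at A and C (top) and at G and T (bottom); each line is 1 library. At A and C all 19 windows lay lower in both knockout libraries than in both wild-type libraries, a count not made over the strand. The wild-type lines varied more along the mRNA.

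All 19 windows were lower in both knockout libraries than in both wild-type libraries. How many of the strand's 330 windows were so was not counted, so this is not shown to be particular to ND1. Without centring, 18 of 19 windows fell and 0 rose (limma, adjusted p under 0.05), against 90.6% lower and 1.52% higher over the strand. The exception was nt 551 to 600, whose log2 change of -0.03 (SE 0.039) did not pass. With centring, 12 windows were called higher and 5 lower, where 60.9% and 27% of all windows were, so these shares were near the background. The largest centred rises were in nt 551 to 600 (0.60, SE 0.036, limma adjusted p = 1.77e-06), nt 601 to 650 (0.53, SE 0.020, adjusted p = 1.58e-07) and nt 101 to 150 (0.45, SE 0.039, adjusted p = 1.31e-05). The largest centred falls were in nt 201 to 250 (-0.15, SE 0.010, limma adjusted p = 3.26e-06), nt 501 to 550 (-0.07, SE 0.011, adjusted p = 0.000543) and nt 851 to 900 (-0.06, SE 0.012, adjusted p = 0.00158). Over the 19 windows the wild-type mean and the centred change had a Spearman rho of -0.80, which is a description of windows that share these libraries.

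Most single positions of ND1 were called. With centring, 487 of the 612 tested positions passed (limma, adjusted p under 0.05 over all 9910 tested heavy-strand positions), 79.6% against 71.5% for the strand. Of these, 338 were higher and 149 lower in the knockout, against 44.9% and 26.6% of the strand's positions. Without centring, 29 positions rose and 519 fell, where 4.73% of the strand rose and 78.3% fell. The 2 groups did not overlap at 562 positions after centring, where 87.2% of the strand's positions did not.

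Both bases fell without centring, C by more, so centring on a joint median gave them different calls. Among the 270 tested A, 221 were called higher and 14 lower with centring, while without it 9 rose and 214 fell. Among the 342 tested C, 117 were called higher and 135 lower with centring, while without it 20 rose and 305 fell. With each base centred on its own median, 166 A were called higher and 29 lower, and 186 C higher and 79 lower. Calls were not counted by base over the strand, so these counts show nothing particular to ND1. On the heavy strand outside ND1 the ratio of C to A also fell, from 1.45 in wild type to 1.20 in the knockout. To see whether the loss depended on the level itself, positions were sorted in wild-type replicate 1 and read in replicate 2. The 114 most reactive C read 6.11% in wild type against 3.38% in the knockout, a ratio of 1.81, and the 114 least reactive C 1.95% against 1.36%, a ratio of 1.44. For A the ratios were 1.30 over the 90 most and 1.14 over the 90 least reactive. Sorting in replicate 2 and reading in replicate 1 kept this order, with 1.46 for the least reactive C and 1.31 and 1.16 for the A.

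**Figure D2:**
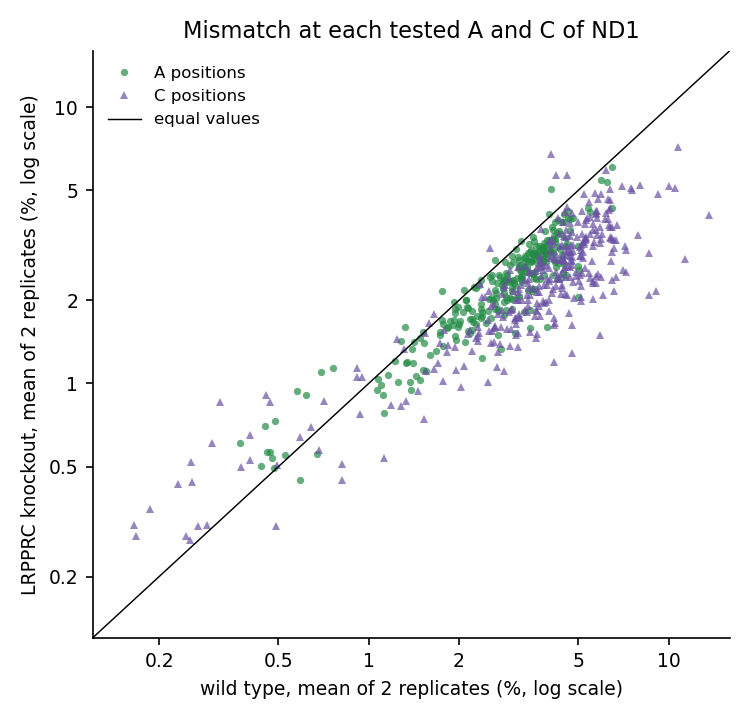
Mismatch level (%) of each tested A (circles) and C (triangles) of ND1, wild-type mean against knockout mean, both on log scales, with the line of equal values. Most points lie below the line, C further below than A, and a group of low points lies above it.

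The 5 most reactive C of wild type were all lower in the knockout, by unequal amounts. C483, the third base of codon 161, read 13.5% and 13.7% in wild type against 4.09% and 4.01% in the knockout. C750, the third base of codon 250, read 11.5% and 11.2% against 2.84% and 2.80%. C827 read 10.9% and 10.6% against 7.09% and 7.27%, C34 10.4% and 10.6% against 5.08% and 5.14%, and C883 9.52% and 10.6% against 5.06% and 5.28%. All 5 lay far apart between groups, but the ratio of wild type to knockout was 3.36 for C483 and 4.02 for C750 and smaller for the others. Centred on the library median, C483 and C750 were 1.09 and 1.34 below their wild-type value on the log2 scale, whereas C827 did not pass (0.05, limma adjusted p = 0.216).

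The 6 largest centred falls in ND1 were all C, and 5 of them are described here, C483 and C750 included. C224 read 8.55% and 8.68% in wild type against 2.05% and 2.13% in the knockout (centred log2 change -1.36, SE 0.029, limma adjusted p = 0.000115). C207 went from 6.10% and 5.69% to 1.47% and 1.52%, and C321 from 4.87% and 4.66% to 1.25% and 1.32%. The local sequences of 4 of these C are shown as places of large losses, with the named base in capitals.

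C224: atcaccgcccCgaccttagct
C750: atgacgcactCtcccctgaac
C207: ctaccatcacCctctacatca
C321: ttattctagcCacctctagcc

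Among the 20 largest centred falls in ND1, 20 were C, and 14 of these were unpaired in the fold predicted from the sequence alone, as were 5 of the 10 largest falls. Among the 50 largest falls 47 were C and 3 were A, and 40 were unpaired. Of all 612 tested positions 458 were unpaired in that fold. The share was thus not above that of the gene among the 10 and the 20 largest falls, and was a little above it among the 50.

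The 5 most reactive A of wild type were lower in the knockout by ratios from 1.06 to 1.51. A621 read 6.58% and 6.39% in wild type against 6.10% and 6.08% in the knockout, and A732 6.08% and 5.83% against 5.49% and 5.45%. A627 read 6.47% and 6.03% against 5.40% and 5.36%, and A328 5.53% and 5.45% against 4.17% and 4.20%. A162 fell most of the 5, from 6.56% and 6.41% to 4.31% and 4.29%. All 5 fell without centring, by 0.09 (A621) to 0.58 (A162) on the log2 scale (limma, adjusted p = 0.0331 for A621 and 3.66e-05 for A162). With centring A621, A732, A627 and A328 were called higher, by 0.25 to 0.54, and A162 did not pass (0.05, limma adjusted p = 0.127).

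The 6 largest rises were all C, and 5 of them were among the least reactive C of ND1 in wild type. C356 read 0.322% and 0.318% in wild type against 0.836% and 0.878% in the knockout (log2 change 1.82 centred and 1.19 uncentred, limma adjusted p = 0.000298 for each). C626 read 0.461% and 0.449% against 0.929% and 0.891%, C615 0.311% and 0.288% against 0.608% and 0.605%, C624 0.266% and 0.245% against 0.514% and 0.525%, and C578 0.470% and 0.469% against 0.832% and 0.886%. Each was above its wild-type values in both knockout libraries, with and without centring. The mean level of the G of ND1 was 0.449% in wild type against 0.386% in the knockout, so these 5 C lay near or under that background in wild type and above it without LRPPRC. C404 was different, as it was already at 4.10% and 4.04% and reached 6.58% and 6.93% (1.35 centred and 0.72 uncentred, limma adjusted p = 0.000117 and 4.84e-05).

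C356: atcctctgatCagggtgagca
C626: gaactagtctCaggcttcaac
C615: aaggggagtcCgaactagtct
C624: ccgaactagtCtcaggcttca
C578: ctagcagagaCcaaccgaacc
C404: gcactgcgagCagtagcccaa

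These contexts are shown because all 6 positions were paired in the fold predicted from the sequence alone, described next.

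The 29 positions that rose without centring were few, 4.74% of those tested where 4.73% of the strand rose, but they were clustered along the mRNA. Of them 14 lay in nt 571 to 630, 9 in nt 351 to 410, 5 between C298 and A333, and the last was C545. In the fold with the lowest predicted energy, made from the sequence with no reactivity (163 pairs, -142.2 kcal/mol), 154 tested positions were paired and 458 unpaired. Of the paired positions 25 rose and 106 fell, and of the unpaired positions 4 rose and 413 fell. The median log2 change without centring was -0.38 at paired and -0.49 at unpaired positions. The rises also went with a low starting level. Of the 44 tested positions with a wild-type mean under 1%, 22 rose and 5 fell. Of the 568 at 1% or more, 7 rose and 514 fell. Pairing and starting level were not separated, and whether the rises follow pairing or a level near the G background was not tested.

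**Figure D3:**
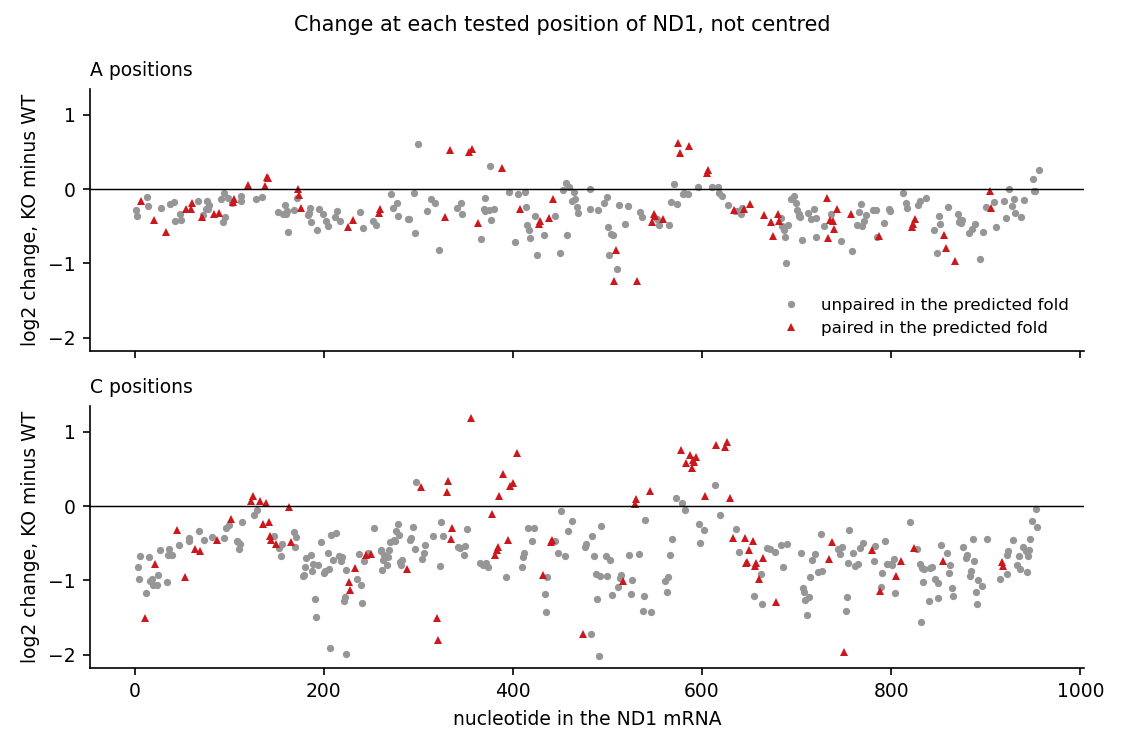
Log2 change without centring (knockout minus wild type) at each tested A (top) and C (bottom) of ND1 along the mRNA. Triangles are positions paired and circles positions unpaired in the fold predicted from the sequence alone; most values lie below 0, and 23 of the 29 called rises fall in nt 351 to 410 and nt 571 to 630.

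The predicted fold was reflected in the levels of both groups. Paired A and C averaged 2.68% and 2.67% in wild type and unpaired ones 3.90% and 3.87%. In the knockout paired positions averaged 1.90% and 1.90% and unpaired ones 2.57% and 2.59%. The chance that a random unpaired position read higher than a random paired one (the area under the receiver operating curve) was 0.692 and 0.688 in wild type against 0.689 and 0.695 in the knockout. ND1 stood 6th of the 12 heavy-strand mRNAs by this measure in wild type, between COX1 (0.712) and ND5 (0.676). The separation was better for C (0.755 and 0.750 in wild type, 0.735 and 0.736 in the knockout) than for A (0.595 and 0.595, then 0.626 and 0.636). The Spearman rho between level and predicted unpaired probability in local folds was 0.366 and 0.361 in wild type against 0.367 and 0.372 in the knockout, as a description over 612 positions.

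By the rule for hairpins, a closing stem of at least 5 pairs with enough tested bases, 6 hairpins were found in the sequence-alone fold. Their loops are in capitals below, as these letters show which bases the prediction does not pair.

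nt 588 to 610: ccccttcgACCTTGCcgaagggg
nt 805 to 826: ctgttcTTATGAATTCgaacag
nt 51 to 65: ggcattCCTaatgct
nt 163 to 177: ctcttCACCAaagag
nt 438 to 475: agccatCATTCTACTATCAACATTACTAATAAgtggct
nt 854 to 870: tcataCACCTCCtatga

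In all 6 hairpins the loop read higher than the stem in both groups. The hairpin at nt 588 to 610, of 8 pairs, had the widest separation. Its 4 tested loop bases averaged 3.48% and 3.41% in wild type against 2.92% and 2.90% in the knockout. Its 7 tested stem bases averaged 0.285% and 0.271% in wild type against 0.397% and 0.401% in the knockout. The log2 difference of loop over stem was thus 3.28 in wild type against 2.59 in the knockout, with the loop lower and the stem higher. The stem stood below the mean of G in ND1 in wild type and close to that mean in knockout libraries.

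The hairpin at nt 805 to 826 went the other way. Its loop averaged 3.70% and 3.54% in wild type against 3.18% and 3.11% in the knockout, and its stem 1.17% and 1.21% against 0.768% and 0.760%. The log2 difference of loop over stem was 1.47 in wild type against 1.90 in the knockout. C827, which follows this stem, came after only C483 and C750 among the C of wild type. The remaining hairpins had smaller differences. They were 1.02 and 1.02 at nt 51 to 65, 0.95 and 0.78 at nt 163 to 177, 0.52 and 0.86 at nt 438 to 475, and 0.24 and 0.21 at nt 854 to 870, for wild type and knockout. Over the 6 the difference was smaller in the knockout in 3.

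**Figure D4:**
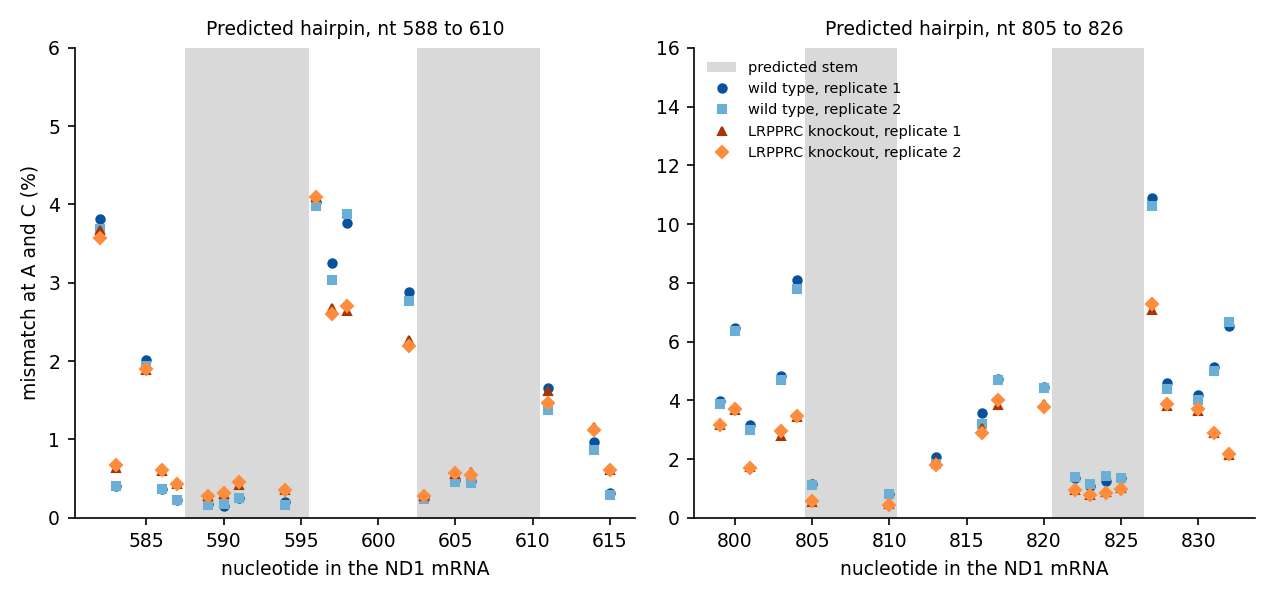
Mismatch level (%) at each tested A and C in and around the predicted hairpins at nt 588 to 610 and nt 805 to 826, with 1 symbol for each library and the stems shaded. Stem bases lie under 1.5% and most loop bases above 2% in all 4 libraries, and C827, just after the second stem, stands highest.

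When the reactivities guided the folding, the models of the 2 wild-type libraries shared 130 pairs and those of the 2 knockout libraries 137. Of these, 89 pairs were in all 4 models, 68.5% of the wild-type set and 65.0% of the knockout set. Another 41 pairs were in both wild-type models and neither knockout model, and 48 the reverse. These numbers moved with the settings: without a maximum pairing distance only 4 and 25 pairs were specific to a group, and with stronger weighting of the reactivities 10 and 17. No group-specific helix is therefore named.

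The helices found in all 4 guided models and in the sequence-alone fold numbered 10. Since reactivity helped to choose them, their levels are a description. The longest joined nt 353 to 362 with nt 381 to 390, in 10 pairs. Its 9 tested bases averaged 1.38% and 1.39% in wild type against 1.51% and 1.56% in the knockout, which is 0.387 and 0.639 of the ND1 mean. C356 lies in this helix, and C404 lies beyond its 3′ arm. The helix of nt 574 to 578 with nt 622 to 626, which encloses the hairpin at nt 588 to 610, averaged 0.486% and 0.465% in wild type against 0.822% and 0.834% in the knockout. C578, C624 and C626 are in it. The helix of nt 115 to 121 with nt 136 to 142 averaged 0.586% and 0.565% against 0.573% and 0.553%, so its level did not differ beyond the spread while the mRNA as a whole fell. Over the 55 tested positions of the 10 helices the means were 1.27% and 1.27% in wild type against 1.07% and 1.06% in the knockout, and outside them 3.82% and 3.79% against 2.53% and 2.55%. The medians differed from this: in the helices the median level was 0.817% in wild type against 0.857% in the knockout. The median log2 change without centring was 0.03 in the helices and -0.48 outside them.

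ND1 begins almost at the 5′ end of its mRNA, and whether its first 50 nt stood above the rest depended on which positions were tested. With A and C each centred on their own median in ND1, the first 50 nt stood 0.15 and 0.17 above the rest in wild type against 0.01 and 0.04 above it in the knockout (log2, difference -0.13, two-sided exact permutation p = 0.333). This difference came from C (-0.23) and was -0.0014 for A alone. With a mean fraction of at least 0.01 the first 50 nt stood below the rest already in wild type (-0.057 and -0.041), and over the first 100 nt the difference between the groups was -0.030. At the start codon, A1 read 1.99% and 2.02% in wild type against 1.62% and 1.65% in the knockout, and A3 2.71% and 2.61% against 2.05% and 2.04%. In codon 2, C4 read 5.62% and 5.61% against 3.06% and 3.23%, C5 3.51% and 3.67% against 1.74% and 1.79%, and C6 2.67% and 2.62% against 1.59% and 1.64%. All 5 fell without centring (limma adjusted p from 3.02e-05 to 0.00346). A7, the first base of codon 3, read 1.84% and 2.00% against 1.67% and 1.74% and did not pass (limma adjusted p = 0.0585).

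The 3′ end changed less. Over the last 20 nt of ND1 the tested positions averaged 2.20% and 2.33% in wild type against 1.75% and 1.84% in the knockout, while the first 20 nt averaged 3.36% and 3.40% against 1.94% and 1.99%. Of the 7 A and C in the last 8 nt, C949 and C954 fell without centring (limma adjusted p = 0.00451 and 0.0259). The other 5, A950, A951, A952, C953 and A956, did not pass (limma adjusted p from 0.0566 to 0.856). With centring all 7 were called higher, by 0.35 to 0.89, though C954 lost its call without wild-type replicate 1 (limma adjusted p = 0.0537) and without knockout replicate 2 (limma adjusted p = 0.0559). A951 lost its call without knockout replicate 2 (limma adjusted p = 0.0535). A956, the last base of the gene, read 1.21% and 1.44% in wild type against 1.59% and 1.61% in the knockout. The tRNA bases on either side were closer between the groups. The last 20 nt of TRNL1 averaged 4.02% and 3.89% against 3.60% and 3.46%, and the first 20 nt of TRNI 1.11% and 1.56% against 1.30% and 1.38%.

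The base before a C went with its level. In wild type C after A averaged 5.23% and C after C 3.25%, with C after T at 4.19% and C after G at 3.66%. In the knockout these were 3.30%, 1.81%, 2.57% and 2.35%. The other 11 heavy-strand mRNAs had the same order in wild type, with 5.33%, 3.26%, 4.31% and 3.58%, so this is not particular to ND1. Codon position went with smaller differences: C averaged 3.72%, 4.41% and 4.04% at the first, the second and the third base of the codon in wild type against 2.39%, 2.62% and 2.41% in the knockout. A averaged 2.72%, 3.02% and 3.14% against 2.16%, 2.40% and 2.45%.

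The G and T of ND1 were lower in both knockout libraries. By the mean over both bases this was so in 6 of the other 11 heavy-strand mRNAs and reversed in 4. For G alone it was so only in ND2, 1 of the 11, and reversed in 7. For T alone it was so in 7 and reversed in 3. G averaged 0.468% and 0.431% in wild type against 0.374% and 0.397% in the knockout, and T 1.04% and 1.02% against 0.736% and 0.735%. Over all positions of the other 11 mRNAs G went from 0.453% and 0.418% up to 0.531% and 0.568%, and T stood at 1.03% and 0.989% against 0.998% and 1.01%. The ratio of knockout to wild type for G and T together was 0.737 in ND1, the lowest of the 12, with the others from 0.741 in ND2 to 1.32 in ND4. Relative to the mean of the other 11, ND1's G and T level was -0.0025 and 0.02 in the wild-type libraries and -0.41 and -0.42 in the knockout libraries on the log2 scale (difference -0.42, two-sided exact permutation p = 0.333, the smallest possible).

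The ratio of A and C to G and T differed less between the groups in ND1 than in the other mRNAs. It was 4.18 and 4.28 in wild type against 3.87 and 3.85 in the knockout. With the limits on the mean fraction applied to all 4 bases, G and T included, the means were 4.05 and 3.71. With A alone over G and T the order turned, to 3.36 in wild type against 3.60 in the knockout. It did not turn for A over G alone, without the lower limit, at 6.31 and 6.81 in wild type against 6.20 and 5.83 in the knockout. For A and C over G and T with a mean fraction of at least 0.01, the means were 2.42 and 2.35. That limit also removed the lower G and T, so this last ratio is not one of signal to the whole background. In wild type ND1 stood 7th from the lowest of 12, and in the knockout 11th, below only COX1 at 3.92. The other mRNAs had knockout means from 1.56 (ND4) to 3.92, and the ratio was lower in both knockout libraries than in both wild-type libraries in all 12. Relative to the other 11 the log2 ratio of ND1 was 0.03 and 0.01 in wild type against 0.47 and 0.49 in the knockout (two-sided exact permutation p = 0.333). The knockout ratio was 0.912 of the wild-type ratio in ND1, the highest of the 12, 0.890 in ND2 and 0.382 in ND4.

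**Figure D5:**
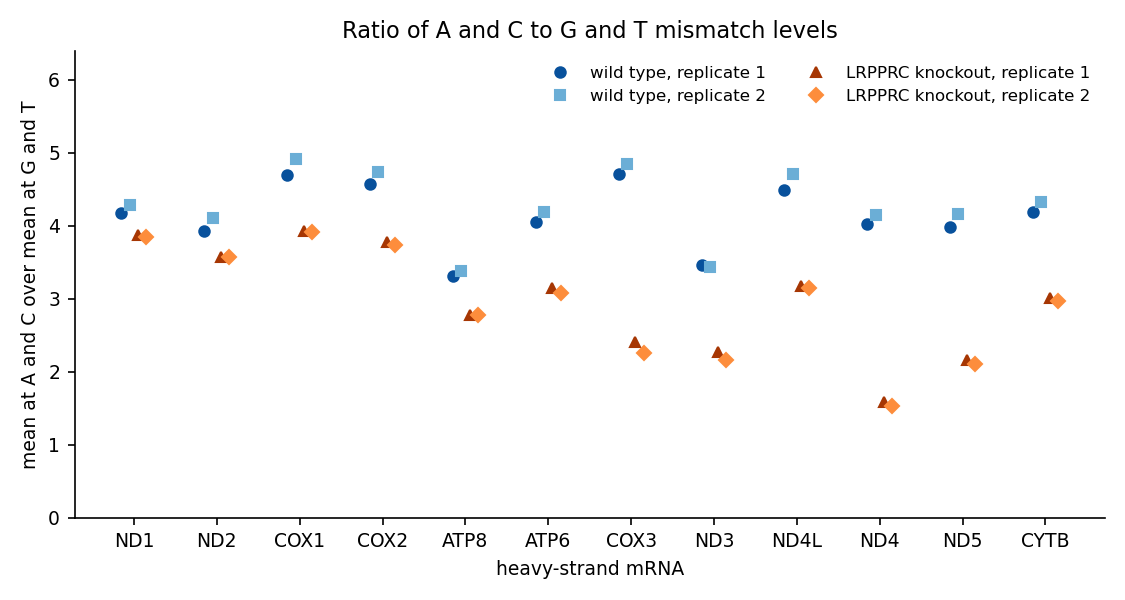
Ratio of the mean mismatch level at A and C to that at G and T in the 12 heavy-strand mRNAs, with 1 symbol for each library. In ND1 the knockout libraries are at 3.87 and 3.85 against 4.18 and 4.28 in wild type, a smaller drop than in the other 11.

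A few T and G of ND1 read as high as a reactive base. T887 read 4.61% and 6.20% in wild type against 3.60% and 3.81% in the knockout, T942 3.49% and 4.56% against 3.39% and 3.77%, and T710 2.68% and 3.49% against 1.70% and 1.92%. G257 read 2.45% and 2.79% against 2.34% and 2.24%. In the light-strand file the bases opposite these were A or C and read from 2.34% to 4.13%. Over the 228 T of ND1 the Spearman rho with the opposite base was 0.523 and 0.561 in wild type against 0.187 and 0.180 in the knockout, as a description. Over the 112 G it was 0.632 and 0.664 against 0.555 and 0.539. Whether light-strand RNA contributes to these readings was not tested.

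Among the heavy-strand mRNAs ND1 was in the middle by level. By wild-type mean it stood 8th from the lowest of 12. CYTB, for a subunit of complex III, was just below it at 3.57% and 3.54%, which overlaps ND1, and ND5 was above at 3.67% and 3.64%, which does not. By knockout mean it stood 7th. The mean log2 value of ND1 minus that of the other 11 was -0.01 and -0.00044 in wild type against 0.04 and 0.05 in the knockout (difference 0.05, two-sided exact permutation p = 0.333). The genes most like ND1, by Euclidean distance over the mean log2 values at A and at C in the 4 libraries, were CYTB (0.171), COX2 (0.172) and COX1 (0.299). In CYTB the mean log2 value of knockout minus wild type was -0.32 at A and -0.59 at C, and in ND1 -0.30 and -0.63.

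The other mitochondrially encoded subunits of complex I gave a mixed picture. Without centring all 6 fell (limma, adjusted p under 0.05), by 0.52 in ND2, 0.47 in ND3, 0.50 in ND4L, 0.90 in ND4, 0.62 in ND5 and 0.07 in ND6, beside 0.49 in ND1. With centring ND2, ND3 and ND4L were called higher, as ND1 was, ND4 and ND6 lower, and ND5 did not pass (0.01, limma adjusted p = 0.539). ND6 is read from the light-strand file and was centred on that file's median. ND4 read 3.86% and 3.83% in wild type against 1.94% and 1.93% in the knockout.

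The Gini index, which is 0 for equal levels and rises as signal gathers at fewer positions, was lower for ND1 in the knockout. It was 0.271 (SD 0.000885, n = 2) in wild type against 0.246 (SD 0.000511, n = 2) in the knockout (difference -0.025, SE 0.0023, limma adjusted p = 0.0102 over all genes, of which 37.8% were called lower). All 12 heavy-strand mRNAs moved this way, and ND1 had the second smallest drop. With A alone the index was 0.226 against 0.218 (limma adjusted p = 0.138) and with C alone 0.269 against 0.265 (adjusted p = 0.190), so the call was lost within each base. It was also lost without wild-type replicate 2 (adjusted p = 0.0556), without knockout replicate 1 (0.123) and without knockout replicate 2 (0.118).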

How the data were processed

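DMS mutational profiling with TGIRT-III was carried out on 4 libraries, 2 wild type and 2 LRPPRC knockout. The authors deposited, for each strand, the fraction of reads with a mismatch at each base, pooled over all molecules of a library; the submitters' processing notes name cutadapt and Bowtie2, and the versions, build and filters are not given in the sources used here. No read counts come with these fractions, so the depth is unknown, and they carry no interval. The numbering was matched to the GRCh38.p14 gene table (RefSeq), with a shift of 1 beyond position 3106. Strand was assigned to genes from general knowledge of the mitochondrial genome.

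A and C with a mean fraction from 0.002 to 0.3 were tested as log2(fraction + 0.001), centred on the median of the library's tested positions. This pseudocount understates changes at low positions. limma 3.58.1 (lmFit, eBayes with trend, without trend for the Gini index) was fitted over 9910 positions, over 330 windows of 50 nt and over 37 genes, each with Benjamini-Hochberg adjustment. Single values were compared by the exact permutation test, two-sided. The limma step was tested on simulated data of 9910 positions: 100% of 200 positions changed by 0.5 (log2) were recovered, with 5 false calls among the unchanged positions. The simulated noise was normal with the same spread at every position. In the data the spread was larger at low positions, so the simulation does not speak for calls there. Folding used ViennaRNA 2.7.2: local pairing probabilities (window 240 nt, span 160 nt, 37 °C), a minimum free energy fold, and folds guided by each library (slope 1.8, intercept -0.6, maximum pairing distance 350 nt, reactivities scaled to the 95th percentile).

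Positions were named by a rule: the 5 most reactive A and the 5 most reactive C in wild type, the 6 largest rises and the 6 largest falls, all A and C of the first 3 codons and of the last 8 nt. 1 of the named positions is not reported here. Windows, hairpins and neighbouring genes were named by size in the same way. The gene, the stretches printed and the lists were chosen with earlier results of these data known. Replicate numbers did not pair the libraries. The difference between the wild-type replicates correlated with that between the knockout replicates at 0.10 over ND1 and 0.0007 over the strand. The alternatives tried were the pseudocount, the limits on tested positions, deletions added, each base alone, the centring, the window size, the replicate block and leaving out each library.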

Additional observations from a re-analysis of the deposited data

How the results depend on the processing

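The direction of change in ND1 depended on the scaling. The gene's log2 change was 0.14 with centring, -0.49 without it and -0.54 when scaled by the median of G and T. With centring it was 0.065 with a mean fraction of at least 0.01 and 0.082 with a pseudocount of 0.01, both called. Positions called higher and lower were 29 and 519 without centring and 25 and 533 with the G and T scaling, and windows 0 and 18 in both. With A alone the positions called were 195 (166 higher, 29 lower) and with C alone 265 (186 higher, 79 lower), of 270 and 342 tested and centred on that base alone, and 1 window was called lower with A alone. Windows of 100 nt gave 8 calls with 0 lower, and windows of 25 nt gave 33 (23 higher, 10 lower). The change in the ratio of A and C to G and T, -0.34, was 0.24 with A alone. It was -0.068 with a mean fraction of at least 0.01, a limit that also removed the lower G and T. The Gini change of -0.025 was -0.0074 with A alone and -0.0043 with C alone, neither called, and from -0.025 to -0.024 when each library was left out, called in 1 of 4; the cause was not tested. With the replicate block, 462 positions (320 higher, 142 lower) and 16 windows were called. The gene change stayed 0.14 (limma adjusted p = 4.89e-10), with an SE of 0.017 against 0.0076 without the block. The adjusted p was thus smaller although the SE was larger. The Gini change stayed -0.025 (limma adjusted p = 0.0306). No effect size or count among these moved by over 1.5 times. The named positions that changed sign without centring and with the G and T scaling were, in that order, A162 -0.58 and -0.64, A621 -0.089 and -0.14, A627 -0.21 and -0.27, A732 -0.12 and -0.18, A328 -0.38 and -0.44, C827 -0.58 and -0.63, A1 -0.28 and -0.33, A3 -0.37 and -0.42, A7 -0.16 and -0.22, C949 -0.21 and -0.26, A951 -0.027 and -0.083, A952 -0.024 and -0.079, C953 -0.036 and -0.092, C954 -0.28 and -0.33. C6 changed sign with C alone, to 0.13. A162 and C827, not called with centring, also changed sign with a pseudocount of 0.01 (-0.036 and -0.061), A162 with A alone (-0.081) and C827 with quantile normalization (-0.047). Pseudocount, limits and deletions left the direction of the gene change as it was. Depth is unknown, so the lowest levels, near the G background, carry an unknown counting error.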
